A study of Mus musculus with 2 samples.

Results

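Of the 18159 gene symbols measured in the jejunal tunica muscularis, 9 are examined here as enteric neuron genes. They were taken by symbol from the deposited table and are *Elavl4*, *Uchl1*, *Ret*, *Tubb3*, *Chat*, *Nos1*, *Snap25*, *Vip* and *Tac1*, and each of the 9 was listed. The study asked what loss of DNMT1, the enzyme that copies DNA methylation to new strands, does to gastrointestinal smooth muscle. Messenger RNA of jejunal smooth muscle tissue, peeled away from the mucosa, was sequenced from *Dnmt1*-WT and *Dnmt1*-KO mice of the C57BL/6 background at P15, that is, at an age of 15 days. Both genotypes carried the smMHC Cre-eGFP transgene, in which Cre recombinase and the green fluorescent protein eGFP are driven by the promoter of the smooth muscle myosin gene *Myh11*, and the strain label of both also names the Dnmt1 lox/lox allele. In *Dnmt1*-KO mice the floxed *Dnmt1* was deleted in the cells that express this Cre. The deletion is thus directed at smooth muscle cells, and the neurons of the same tissue are not the cells in which the *Myh11* promoter is chosen to act. There was 1 library for each genotype, with 4 mice, 2 male and 2 female, behind each genotype, and how their RNA was combined is not given in the sources used here. No difference below therefore has a replicate check, and no test and no error could be computed.

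The enteric nervous system is the network of neurons and glia within the gut wall. Its myenteric plexus lies between the circular and longitudinal muscle layers, so that a muscle preparation of the gut includes neuronal cell bodies and nerve fibres. Excitatory motor neurons release acetylcholine and tachykinins onto the muscle, inhibitory motor neurons release nitric oxide and vasoactive intestinal peptide, and the survival and growth of their precursors depend on the receptor tyrosine kinase RET.

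Values are FPKM, that is, fragments counted on a gene scaled to the length of its transcripts and to the size of the library, and ratios are plain ratios of FPKM, *Dnmt1*-KO over *Dnmt1*-WT. FPKM is a share of the library, so a higher value can come with more transcripts of a gene or with fewer transcripts of other genes. In a bulk library, a change in the number of cells of a type and a change in RNA per cell cannot be told apart. The 2 libraries summed to 429698 FPKM for *Dnmt1*-WT and 460845 FPKM for *Dnmt1*-KO, and the read counts behind single genes are unknown. *Dnmt1* itself was listed at 11.58 FPKM for *Dnmt1*-WT and 7.58 FPKM for *Dnmt1*-KO, a ratio of 0.655. The description label of both libraries names the *Dnmt1* null genotype, whereas the title and genotype labels separate WT from KO and were used here. Over all genes with at least 1 FPKM in 1 library, 13865 in number, the median log2 ratio of FPKM + 0.1 was -0.01.

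Most of the 9 neuron genes were at similar or moderately higher levels in the *Dnmt1*-KO library, whereas the peptide genes *Vip* and *Tac1* were higher by a wider margin. Of the 9, 7 or 77.8% had a ratio above 1, against 50.3% of the 16102 genes above 0 FPKM in both libraries. One member, *Vip*, was at least doubled, or 11.1% of the 9, and 11.8% of all genes were at least doubled, so the count of doubled members lies near that of genes in general. The members at most halved numbered 0, against 4.98% of all genes. These shares of all genes, 50.3%, 11.8% and 4.98%, are also the reference for the counts of each list below. The median log2 ratio of the 9 genes was 0.31. Among the 10905 genes whose mean level lay within the range of the members, from 2.82 to 255 FPKM, 46.3% had a ratio above 1, 5.79% were at 2 or more and 2.84% at 0.5 or less.

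**Figure D1:**
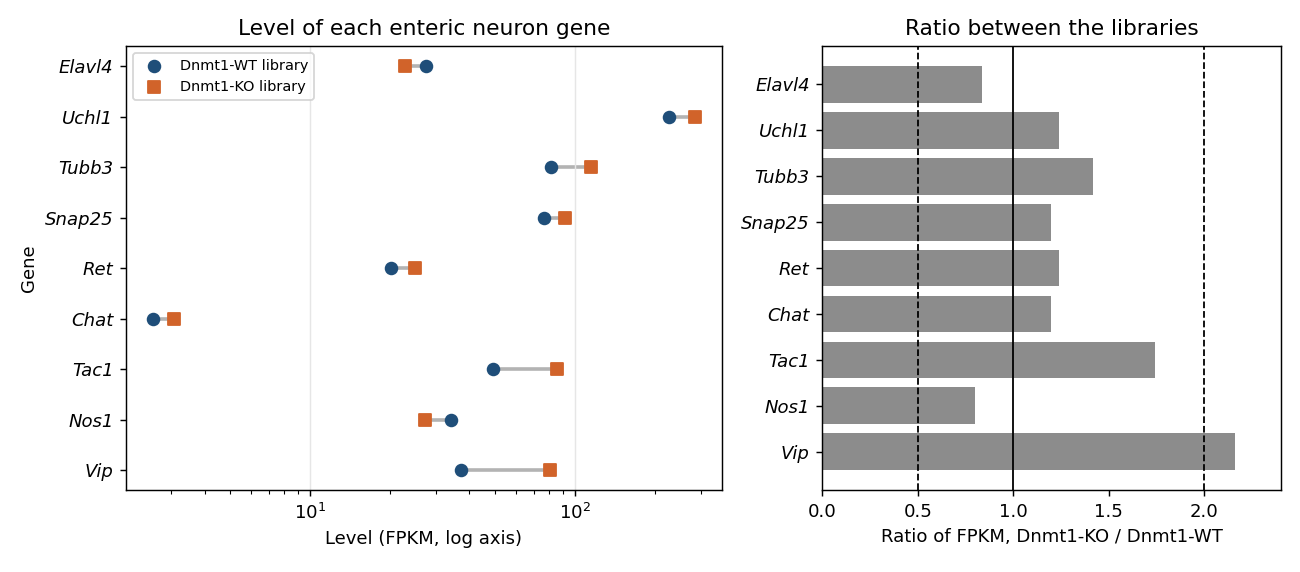
Left, level of each neuron gene in FPKM on a log axis, with a circle for the Dnmt1-WT library and a square for the Dnmt1-KO library. Right, the ratio of the 2 values as bars from 0, with lines at 1, 0.5 and 2. Only Vip, at 2.16, passes the line at 2, and Elavl4 and Nos1 lie below 1.

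The genes used as general neuron markers come first. *Uchl1*, which encodes the abundant neuronal ubiquitin hydrolase also known as PGP9.5, was the highest member in both libraries, with 227.7 FPKM in *Dnmt1*-WT and 283.24 FPKM in *Dnmt1*-KO, a ratio of 1.24. *Tubb3*, the neuronal beta-tubulin of axons, was 81.57 FPKM in *Dnmt1*-WT and 115.47 FPKM in *Dnmt1*-KO, a ratio of 1.42. Both were thus higher in the *Dnmt1*-KO library by less than a doubling. *Snap25*, a membrane protein of the fusion machinery that releases synaptic vesicles, was 76.66 FPKM in *Dnmt1*-WT and 91.77 FPKM in *Dnmt1*-KO, a ratio of 1.2. *Elavl4*, a neuronal RNA-binding protein of the Hu family, went the other way, with 27.39 FPKM in *Dnmt1*-WT and 22.86 FPKM in *Dnmt1*-KO, a ratio of 0.835. The geometric mean of these 4 pan-neuronal genes was 79.02 FPKM in *Dnmt1*-WT and 91.01 FPKM in *Dnmt1*-KO, a ratio of 1.15.

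*Ret*, the receptor for the GDNF family of neurotrophic factors, was 20.15 FPKM in *Dnmt1*-WT and 24.99 FPKM in *Dnmt1*-KO, a ratio of 1.24. *Ret* was below *Elavl4* in the *Dnmt1*-WT library and above it in the *Dnmt1*-KO library, and this was the only change in the order of the 9 levels between the libraries.

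Of the transmitter genes, those of excitatory motor neurons are *Chat* and *Tac1*. *Chat*, the enzyme that makes acetylcholine, was the lowest member in both libraries, at 2.56 FPKM in *Dnmt1*-WT and 3.08 FPKM in *Dnmt1*-KO, a ratio of 1.2. *Tac1*, the precursor of substance P and neurokinin A, was 49.07 FPKM in *Dnmt1*-WT and 85.61 FPKM in *Dnmt1*-KO, a ratio of 1.74. *Tac1* was 19.2 times the level of *Chat* in *Dnmt1*-WT and 27.8 times in *Dnmt1*-KO.

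The genes of inhibitory motor neurons differed in direction. *Nos1*, the neuronal nitric oxide synthase, was 34.07 FPKM in *Dnmt1*-WT and 27.18 FPKM in *Dnmt1*-KO, a ratio of 0.798, the lowest of the 9. *Vip*, the precursor of vasoactive intestinal peptide, was 37.12 FPKM in *Dnmt1*-WT and 80.24 FPKM in *Dnmt1*-KO, a ratio of 2.16, the highest of the 9. *Vip* and *Nos1* were thus at nearly equal levels in the *Dnmt1*-WT library, where *Vip* was 1.09 times *Nos1*, and *Vip* was 2.95 times *Nos1* in the *Dnmt1*-KO library.

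Each transmitter gene was also set against the geometric mean of the 4 pan-neuronal genes in its own library, which would take out a shift common to all of them. The 4 genes did not share 1 ratio, with values from 0.835 for *Elavl4* to 1.42 for *Tubb3*. On that scale *Vip* stood at 47% of the pan-neuronal level in *Dnmt1*-WT and 88.2% in *Dnmt1*-KO, and *Tac1* at 62.1% and 94.1%. Both peptide genes came closer to the level of the pan-neuronal genes. *Nos1* stood at 43.1% in *Dnmt1*-WT and 29.9% in *Dnmt1*-KO, and *Chat* at 3.24% and 3.38%. Relative to the pan-neuronal genes, the ratio between libraries was 1.88 for *Vip*, 1.51 for *Tac1*, 1.04 for *Chat* and 0.693 for *Nos1*. This scale makes no allowance for transcript length, and against genes of like transcript length *Nos1* had a ratio of 0.948, as described below.

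The table also lists how many transcript variants of each gene were found in each library. The number was the same in both libraries for 7 members, among them 6 variants of *Elavl4*, 3 of *Vip* and 1 each of *Uchl1* and *Tubb3*. *Tac1* was listed with 3 variants in *Dnmt1*-WT and 4 in *Dnmt1*-KO, and *Chat* with 2 and 1. The FPKM are given per gene, so that the level of a single variant is not known.

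The members lie at separate places in the genome. In the GENCODE M21 annotation of GRCm38, *Vip* is at chr10:5639218-5647617 and *Tac1* at chr6:7554879-7565834, both on the plus strand, and no other annotated gene overlaps either. *Elavl4* at chr4:110203722-110351909 and *Ret* at chr6:118151745-118197718, both on the minus strand, are also free of overlap. *Uchl1* at chr5:66676091-66687234, *Snap25* at chr2:136713453-136782428 and *Nos1* at chr5:117781032-117958840, all on the plus strand, overlap an antisense gene or pseudogene, and the library kit does not mark strand. *Tubb3* at chr8:123411424-123422015, on the plus strand, overlaps the gene model *Gm20388*, and *Chat* at chr14:32408203-32465989, on the minus strand, contains *Slc18a3*. Reads in these overlaps could be counted for either gene, and the values of these 5 members are uncertain to that extent.

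The promoters of the members were searched for the cyclic AMP response element, a well-known sequence of neuropeptide promoters, and those of *Vip* and *Tac1*, the members with the highest ratios, are shown. RefSeq promoter windows of GRCm38.p6, from 250 bases before to 50 bases after the start, were at hand for 7 of the 9 members, without *Ret* and *Snap25*. The element was searched as the palindrome TGACGTCA, which 1.79% of all 32851 windows hold, and as its part TGACGT on either strand, which 7.51% hold. Windows of 3 members held the part, *Vip* at 79 bases before the start, *Chat* at 172 bases and 1 of the 4 windows of *Elavl4* at 58 bases, and none of the 7 held the palindrome. *Tac1*, *Uchl1*, *Tubb3* and *Nos1* had neither in their windows. In the wider peptide and amine list described below, the palindrome was found in the windows of *Cartpt*, *Sst* and *Th*, and the part alone in that of *Adcyap1*, out of 12 genes with a window. *Gal*, *Nmu* and *Dbh*, with a ratio above 1, had neither, and nor had *Npy*, *Calca* and *Ddc*, with a ratio below 1. *Th* was low, at 0.25 FPKM in *Dnmt1*-WT and 0.66 FPKM in *Dnmt1*-KO. Some genes of the list, *Penk* and *Grp* among them, had no window. *Cartpt* and *Sst* are shown beside the members as examples of the palindrome and were chosen for holding it. The 250 bases before the start follow for *Vip* (chr10:5638968-5639217, plus strand), *Tac1* (chr6:7554811-7555060, plus strand), *Cartpt* (chr13:99900684-99900933, minus strand) and *Sst* (chr16:23890845-23891094, minus strand), each 5′ to 3′ on the strand of its gene, with the element in capitals.
Vip: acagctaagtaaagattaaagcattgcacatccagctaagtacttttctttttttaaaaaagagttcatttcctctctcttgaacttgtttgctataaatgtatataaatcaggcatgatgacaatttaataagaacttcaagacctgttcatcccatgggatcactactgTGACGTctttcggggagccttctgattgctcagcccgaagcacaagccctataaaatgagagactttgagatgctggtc
Tac1: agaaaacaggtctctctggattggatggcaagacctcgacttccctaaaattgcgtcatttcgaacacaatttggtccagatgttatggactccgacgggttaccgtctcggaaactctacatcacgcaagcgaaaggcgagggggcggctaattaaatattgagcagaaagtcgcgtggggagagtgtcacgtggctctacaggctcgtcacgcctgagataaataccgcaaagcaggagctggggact
Cartpt: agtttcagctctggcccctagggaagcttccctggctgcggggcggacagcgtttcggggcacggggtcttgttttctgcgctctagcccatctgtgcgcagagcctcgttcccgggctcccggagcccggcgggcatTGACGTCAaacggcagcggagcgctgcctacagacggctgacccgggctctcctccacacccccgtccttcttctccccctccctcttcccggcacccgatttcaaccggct
Sst: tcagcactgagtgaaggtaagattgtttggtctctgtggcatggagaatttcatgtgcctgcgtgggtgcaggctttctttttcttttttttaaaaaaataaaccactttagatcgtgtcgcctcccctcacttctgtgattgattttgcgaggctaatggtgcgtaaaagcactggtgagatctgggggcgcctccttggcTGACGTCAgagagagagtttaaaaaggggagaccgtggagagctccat

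The element contains a CpG, the dinucleotide that DNMT1 keeps methylated. Over the whole window of 300 bases, *Vip* had 4 CpG, *Nos1* 6, *Uchl1* 9, *Chat* 10, *Tac1* 22 and *Tubb3* 26, against a median of 7 over all windows with quartiles of 3 and 20. The member with the highest ratio thus had the fewest CpG of these 6 and the member with the next highest ratio was among the richest. *Elavl4*, with 4 windows, had 23, 5, 6 and 4 CpG in them, the lowest equal to that of *Vip*, at a ratio of 0.835. Methylation of these promoters was not analysed here, and a match of letters is a description only.

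Other genes of neuronal structure and release were close to the pan-neuronal members. In the list of neuronal cytoskeleton and axon growth genes, 11 of 14 had a ratio above 1, 1 doubled or more and 0 were at or below 0.5, with a median log2 ratio of 0.17. Its most abundant genes were *Stmn2*, a microtubule regulator of growing axons, with 148.34 FPKM in *Dnmt1*-WT and 152.61 FPKM in *Dnmt1*-KO, and *Prph*, the peripheral neuron filament protein peripherin, with 136.82 and 158.83 FPKM. The doubled gene was the neurofilament gene *Nefm*, at 4.07 FPKM in *Dnmt1*-WT and 11.76 FPKM in *Dnmt1*-KO, a ratio of 2.89. The lowest ratio, 0.914, was that of *Dcx*, a microtubule protein of migrating neurons.

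All 14 genes of synaptic vesicles and release had a ratio above 1, from 1.06 for *Cplx2* to 1.4 for *Stx1a*, with a median log2 ratio of 0.21 and none at least doubled. With the libraries scaled to the same FPKM sum, 11 of the 14 remained above 1. *Vamp2*, the vesicle partner of *Snap25*, was 113.98 FPKM in *Dnmt1*-WT and 121.96 FPKM in *Dnmt1*-KO, and *Rab3a*, a vesicle GTPase, was 56.96 and 71.88 FPKM. Thus the release genes lay on the same side as *Snap25*, by a similar or smaller margin.

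Among 5 neuronal RNA-binding genes, 3 had a ratio above 1 and 0 passed 2-fold in either direction, with a median log2 ratio of 0.18. The relatives of *Elavl4* were also slightly lower, *Elavl2* at 1.53 FPKM in *Dnmt1*-WT and 1.33 FPKM in *Dnmt1*-KO, and *Elavl3* at 10.34 and 9.38 FPKM. Against genes of like transcript length, the ratio of *Elavl2* was 0.928 and that of *Elavl3* 0.982. *Celf4* was 23.27 and 26.3 FPKM, and *Nova1* had the highest ratio, 1.39. Of 7 neuronal ion channel genes at 1 FPKM or more, 3 had a ratio above 1 and 4 below, the lowest being 0.803 for *Kcnc1*, with a median log2 ratio of -0.11, and 5 of the 7 were above 1 once genes of like transcript length were the reference. The calcium channel gene *Cacna1b*, whose channel admits the calcium for transmitter release, was 5.7 FPKM in *Dnmt1*-WT and 6.52 FPKM in *Dnmt1*-KO.

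Of 12 genes of enteric nervous system development, 9 had a ratio above 1 and the median log2 ratio was 0.13. *Hand2*, a transcription factor of enteric neuron differentiation that mesenchymal cells of the gut also express, was the most abundant and had the lowest ratio, with 145.15 FPKM in *Dnmt1*-WT and 113.44 FPKM in *Dnmt1*-KO. *Hoxb5* was 70.06 and 76.71 FPKM. *Insm1*, a transcription factor of neuroendocrine differentiation, had the highest ratio, 2.26, at 0.94 FPKM in *Dnmt1*-WT and 2.12 FPKM in *Dnmt1*-KO, and reached 1 FPKM only in *Dnmt1*-KO.

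**Figure D2:**
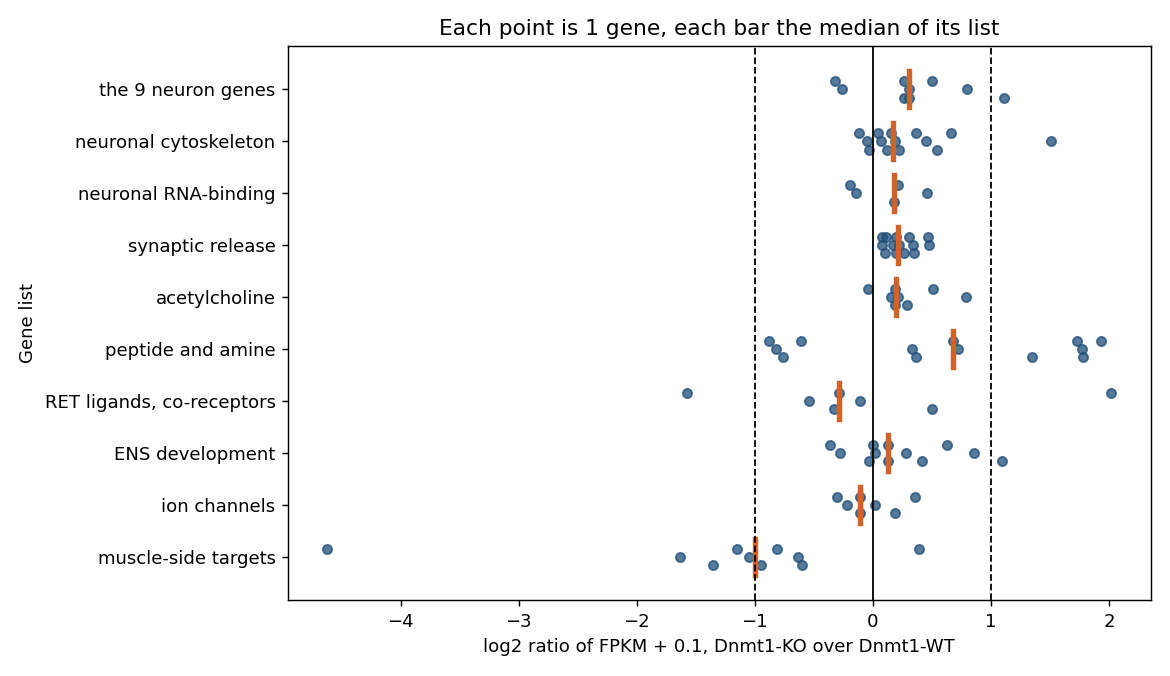
Each point is the log2 ratio of FPKM + 0.1, Dnmt1-KO over Dnmt1-WT, of 1 gene with at least 1 FPKM in 1 library, by gene list, and each vertical bar is the median of its list, with dashed lines at a doubling and a halving. Lists of structure and release sit just above 0, peptide and amine genes spread from -0.88 to 1.93, and muscle-side targets lie lower, with a median of -1.

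The genes that work with *Chat* in acetylcholine signalling are 8, all of them at 1 FPKM or more, of which 7 had a ratio above 1 and 0 were at least doubled, with a median log2 ratio of 0.2. *Slc18a3*, the vesicular acetylcholine transporter, whose gene lies within *Chat*, was 19.22 FPKM in *Dnmt1*-WT and 33.31 FPKM in *Dnmt1*-KO, a ratio of 1.73. It was listed at 7.51 times the level of *Chat* in *Dnmt1*-WT and 10.8 times in *Dnmt1*-KO. *Slc5a7*, the transporter that takes up choline, was 10.15 and 9.89 FPKM, a ratio of 0.974, which became 1.05 against genes of like transcript length, so the 3 genes of the acetylcholine supply did not share 1 ratio. *Ache*, which breaks acetylcholine down, was 39.24 FPKM in *Dnmt1*-WT and 55.82 FPKM in *Dnmt1*-KO, a ratio of 1.42. The nicotinic receptor subunit genes, through which enteric neurons excite each other, had ratios of 1.23 for *Chrna3*, 1.17 for *Chrna5*, 1.15 for *Chrna7*, 1.15 for *Chrnb2* and 1.11 for *Chrnb4*.

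The peptide and amine genes of enteric neurons showed a wider spread than the lists of structure and release. Of the 13 with at least 1 FPKM in 1 library, 9 had a ratio above 1, 5 of them a ratio of 2 or more, and 0 were at or below 0.5, with a median log2 ratio of 0.68, against 11.8% and 4.98% of all genes past these folds. *Gal*, the galanin precursor, was the most abundant at 220.55 FPKM in *Dnmt1*-WT and 352.41 FPKM in *Dnmt1*-KO, a ratio of 1.6. *Penk*, the precursor of the enkephalins, was 82.53 and 210.07 FPKM, a ratio of 2.55. *Cartpt*, the precursor of the CART peptide, had the highest ratio, 3.81, with 37.83 FPKM in *Dnmt1*-WT and 144.29 FPKM in *Dnmt1*-KO. The other 3 doubled genes, named after their values were seen, were *Adcyap1*, the precursor of the VIP relative PACAP, at 1.22 and 4.44 FPKM, *Sst*, the somatostatin precursor, at 18.69 and 64.08 FPKM, and *Grp*, the precursor of gastrin-releasing peptide, at 11.25 and 37.67 FPKM.

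Not all peptide genes were higher. *Npy*, the neuropeptide Y precursor, was 23.4 FPKM in *Dnmt1*-WT and 12.71 FPKM in *Dnmt1*-KO, and *Calca*, the precursor of calcitonin gene-related peptide, was 1.99 and 1.08 FPKM. Both had a ratio of 0.543 after rounding, the lowest of the list. Counting *Vip* and *Tac1* with the other neuropeptide precursors, 10 of 12 genes had a ratio above 1, against 50.3% of all genes, and 6 were at least doubled, against 11.8%, with a median ratio of 1.95. This group was formed after the values were seen, and it leaves out 3 genes of the list that encode no neuropeptide, *Nog* at a ratio of 0.589, *Ddc* at 0.651 and *Dbh* at 1.65. Their summed level was 525.5 FPKM in *Dnmt1*-WT and 1046 FPKM in *Dnmt1*-KO, whereas that of the 14 release genes was 433.76 and 505.66 FPKM. *Vip* ranked in the middle of these 12 by its ratio, below *Penk* and above *Tac1*.

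**Figure D3:**
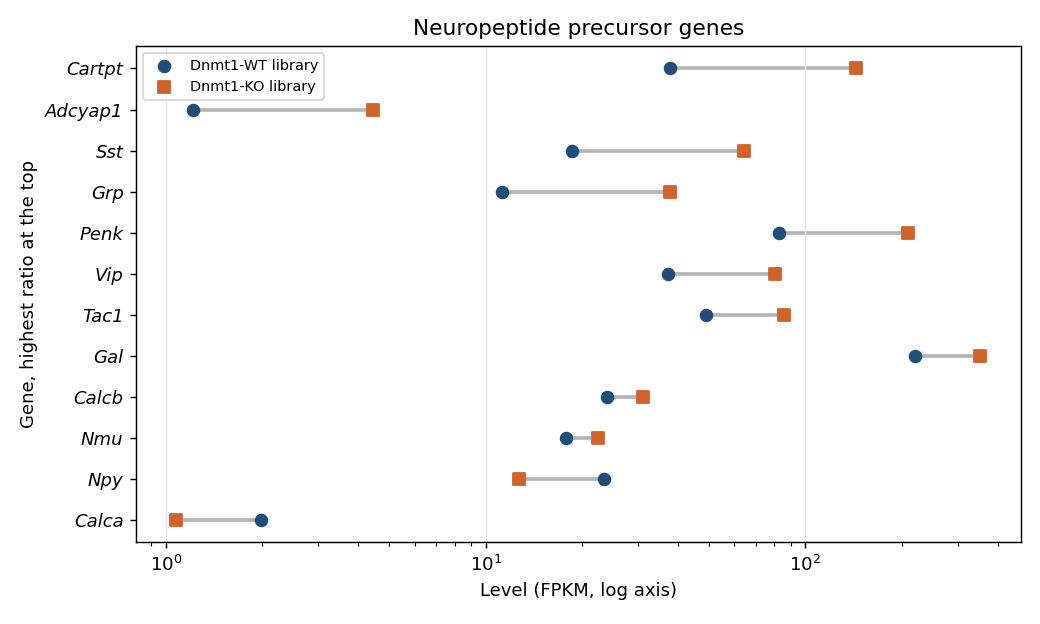
Level in FPKM, on a log axis, of the 12 neuropeptide precursor genes with at least 1 FPKM in 1 library, with a circle for the Dnmt1-WT library and a square for the Dnmt1-KO library. The square lies right of the circle for 10 of the 12 genes, Vip and Tac1 included, and left of it for Npy and Calca.

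Some of these peptides are also made outside the neurons of the muscle layers. Somatostatin and the tachykinins occur in enteroendocrine cells of the mucosa, and proenkephalin in other cells of the gut wall. Of the 6 enteroendocrine markers at 1 FPKM or more in 1 library, 5 had a ratio above 1. The 3 that were at least doubled were all below 1 FPKM in *Dnmt1*-WT and entered only through the *Dnmt1*-KO library. The summed level over 8 genes was 31.12 FPKM in *Dnmt1*-WT and 39.39 FPKM in *Dnmt1*-KO. The defining marker *Chga* was 20.79 and 25.26 FPKM, a ratio of 1.22, and none of the 8 was at 0. *Sct* had the highest ratio of this list, 4.82, *Gip* the lowest, 0.804, and *Cck* was 4.34 and 4.35 FPKM. Enterocyte markers, which stand for absorptive cells of the mucosa, summed to 476.68 FPKM in *Dnmt1*-WT and 1035.98 FPKM in *Dnmt1*-KO, with 4 of 8 at least doubled, *Fabp1* at 42.13 and 145.49 FPKM, and *Sis*, at 1.93 and 0.51 FPKM, at most halved. Enterocyte markers thus moved with the peptide genes, and their part in the peptide values was not tested.

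Other cells of the muscle wall moved with or against the neuron genes as follows, and their part in the values of the members was not tested. Glial genes, whose cells accompany enteric neurons, had a median log2 ratio of 0.11 over 9 genes and summed to 92.46 FPKM in *Dnmt1*-WT and 127.26 FPKM in *Dnmt1*-KO. *Sox10* was 25.16 and 27.88 FPKM and *S100b* was 12.65 and 13.62 FPKM, whereas *Gfap*, the glial filament protein, had a ratio of 7.4 at 4.78 and 35.36 FPKM. The defining glial markers thus stayed close to the pan-neuronal ratio of 1.15, and *Gfap* did not.

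The 10 smooth muscle genes all had a ratio below 1, and 4 were at most halved. Their sum was 19616.14 FPKM in *Dnmt1*-WT and 13395.7 FPKM in *Dnmt1*-KO, or 4.57% and 2.91% of the FPKM of the libraries. *Myh11* was 2685.29 and 1255.51 FPKM, *Acta2* 5408.13 and 4016.24 FPKM, and *Actg2* 3974.45 and 3223.48 FPKM, with ratios over the list from 0.427 for *Smtn* to 0.893 for *Cnn1*. The pan-neuronal genes and the muscle genes thus differed in direction, apart from *Elavl4*. Since both are shares of 1 library, a lower muscle share and a higher neuron share cannot be told apart here.

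The remaining marker lists were read in the same way. Leukocyte markers were at least doubled in 6 of 6 and summed to 25.43 and 82.94 FPKM, with *Ptprc*, which reached 1 FPKM only in *Dnmt1*-KO, at 0.8 and 2.71 FPKM and ratios from 2.43 for *Laptm5* to 5.04 for *Cd52*. The pacemaker cell marker *Kit*, of the interstitial cells of Cajal, was 38.95 and 38.1 FPKM, and its list of 4 summed to 127.66 and 113.62 FPKM, with *Gja5*, at 0.62 and 6.63 FPKM, entering only through *Dnmt1*-KO. Of 4 tuft cell markers, 2 reached 1 FPKM and neither doubled, with a list sum of 24.62 and 26.95 FPKM and *Trpm5* at 0.61 and 0.47 FPKM. Mesothelial markers, 4 in number, summed to 241.97 and 238.9 FPKM, with *Msln* at 72.35 and 78.36 FPKM. Of 4 skeletal muscle markers listed, *Ckm* was 96.73 and 41.41 FPKM and the other 3 were at least doubled at levels up to 12.22 FPKM, *Mylpf* among them entering only through *Dnmt1*-KO.

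The RET ligands and co-receptors were mostly lower in the *Dnmt1*-KO library, unlike *Ret*. Of the 7 with at least 1 FPKM in 1 library, 2 had a ratio above 1, 1 was at least doubled and 1 was at most halved, with a median log2 ratio of -0.29. Of all genes, 50.3% had a ratio above 1, 11.8% were at least doubled and 4.98% at most halved. A count of 1 in 7 past either fold is too small to set apart from those shares. *Gdnf*, the ligand made by the gut mesenchyme for enteric neuron precursors, was 7.88 FPKM in *Dnmt1*-WT and 2.59 FPKM in *Dnmt1*-KO, a ratio of 0.329. *Nrtn*, the ligand neurturin, was 31.9 and 25.27 FPKM, and *Artn*, artemin, was 1.46 and 2.1 FPKM. Of the co-receptors that present these ligands to RET, *Gfra1* was 19.97 and 16.29 FPKM, *Gfra2* 23.19 and 21.5 FPKM and *Gfra4* 23.78 and 16.29 FPKM. *Gfra3*, which reached 1 FPKM only in *Dnmt1*-KO, was 0.41 and 1.97 FPKM. Of the 3 ligands at 1 FPKM or more, *Gdnf* thus had the ratio farthest from 1, while its receptor *Ret* had a ratio of 1.24 and the co-receptor *Gfra1* a ratio of 0.816.

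The receptors and second-messenger genes that receive these transmitters in muscle and interstitial cells, called muscle-side targets here, were mostly lower. Which cells of the tissue their transcripts came from was not tested. Of 10 such genes with at least 1 FPKM in 1 library, 9 had a ratio below 1 and 5 were at most halved, against 4.98% of all genes, with a median log2 ratio of -1. Halved genes numbered 3 when 1 FPKM was required in both libraries, since *Tacr2* and *Tacr3* entered only through *Dnmt1*-WT, and 3 against genes of like transcript length, where *Chrm2* came to 0.551 and *Gucy1b3* had no length. For acetylcholine, *Chrm2*, the more abundant of 2 muscarinic receptor genes, was 86.66 FPKM in *Dnmt1*-WT and 41.74 FPKM in *Dnmt1*-KO, a ratio of 0.482, and *Chrm3* was 3.16 and 2.05 FPKM. For the tachykinins encoded by *Tac1*, *Tacr1* was 5.47 and 1.7 FPKM, *Tacr2* was 15.36 and 0.53 FPKM, and *Tacr3* was 1.28 and 0.44 FPKM. The tachykinin precursor and its 3 receptors thus lay on opposite sides of 1.

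For the nitric oxide made by NOS1, the subunits of its receptor guanylyl cyclase were 52.85 and 34.08 FPKM for *Gucy1a3* and 59.91 and 27.02 FPKM for *Gucy1b3*. The cGMP-dependent kinase gene *Prkg1* was 23.98 FPKM in *Dnmt1*-WT and 13.62 FPKM in *Dnmt1*-KO, and its substrate gene *Mrvi1* was 87.13 and 45.01 FPKM. *Nos1*, with a ratio of 0.798, and these genes lay on the same side. The receptors for VIP were the exceptions in the list, *Vipr2* at 2.76 and 3.65 FPKM, a ratio of 1.32, and *Vipr1*, below 1 FPKM in both libraries, at 0.45 and 0.99 FPKM.

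**Figure D4:**
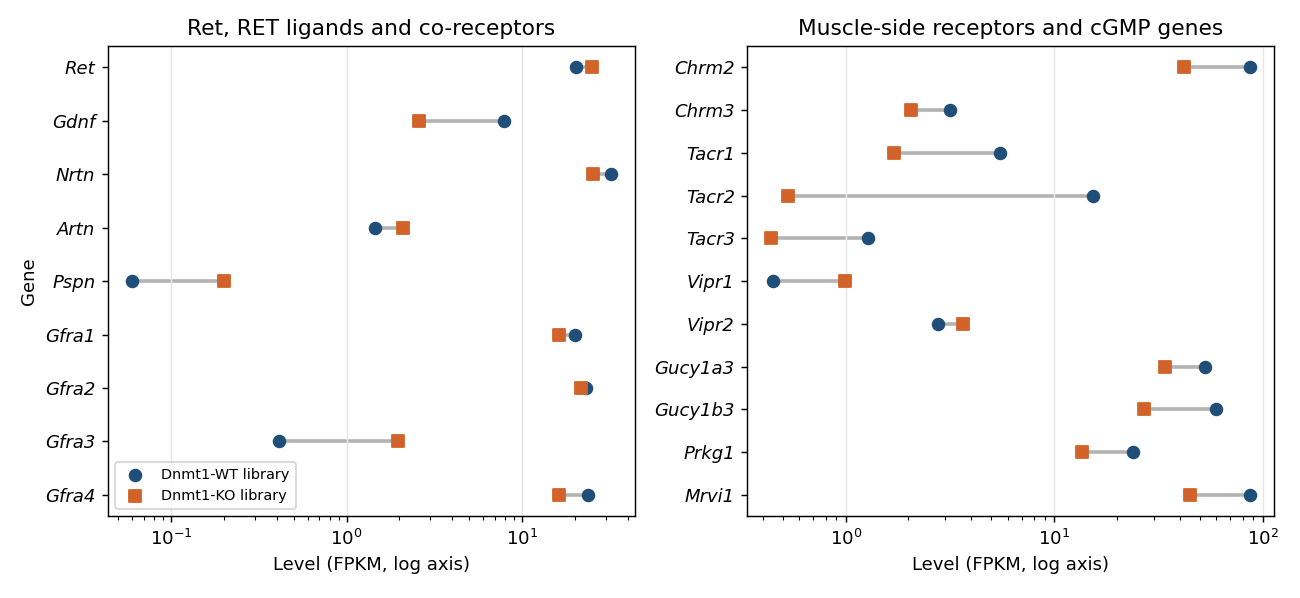
Level in FPKM, on log axes, with a circle for the Dnmt1-WT library and a square for the Dnmt1-KO library. Left, Ret with the RET ligands and co-receptors, of which Gdnf has a ratio of 0.329. Right, receptors and cGMP genes of the muscle side, where all but Vipr2 and the low Vipr1 have the square left of the circle.

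The ratio between the libraries also varied with transcript length over the 12214 genes that had at least 1 FPKM in both libraries and a known length, and this bears on the members with low ratios. In 10 equal bins by the longest GENCODE transcript, the median log2 ratio went from 0.23 in the bin of the shortest transcripts to -0.25 in the bin of the longest. *Nos1*, whose longest transcript has 10123 bases, was in the last bin, and divided by the median ratio of that bin its ratio was 0.948 in place of 0.798. *Elavl4*, at 4149 bases, came to 0.891. The lower values of *Nos1* and *Elavl4* were thus nearer to 1 once genes of like length were the reference. *Vip*, at 2532 bases, came to 2.09, *Tac1*, at 1975 bases, to 1.59, *Uchl1*, at 1177 bases, to 1.06, and *Ret*, at 5456 bases, to 1.42.

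**Figure D5:**
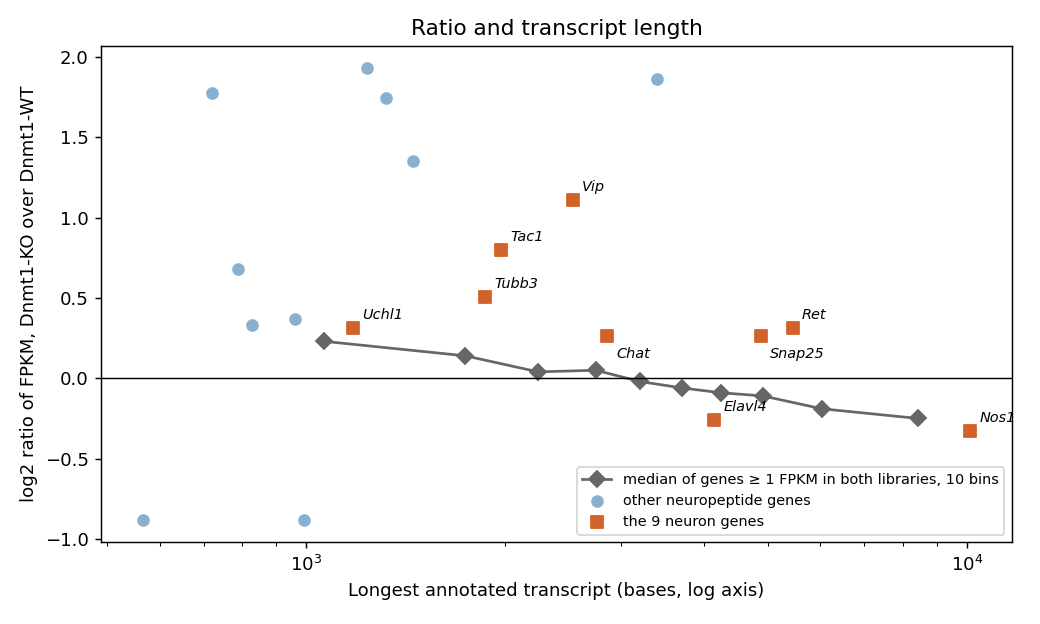
Log2 ratio of FPKM, Dnmt1-KO over Dnmt1-WT, against the longest annotated transcript in bases on a log axis. Diamonds joined by a line are the medians of those 12214 genes, which reach 1 FPKM in each library and have a known length, in 10 length bins, which go from 0.23 to -0.25. Squares are the 9 neuron genes and circles the other neuropeptide precursors. Vip and Tac1 lie above the line, and Nos1 lies close to it.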

How the data were processed

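RNA was isolated with the mirVana kit and libraries were made with the TruSeq RNA kit. TopHat 1.4.1, Cufflinks 2.0.2 and the build mm10 are named in the submitters' processing notes. The authors deposited 1 table with the FPKM of each gene in each library. Further deposited columns hold the number of transcript variants (another measure, which is no expression level), and a last one holds the authors' ratio, which was not used. Depth per gene is unknown, so no interval was computed. Values at or near the lowest value above 0, 0.03 FPKM, carry little weight.

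Columns were matched to genotypes by the labels. Commas inside numbers were removed. Ratios are of unscaled FPKM over genes above 0 in both libraries. Folds of 2 and 0.5 were counted, and medians used FPKM + 0.1. Lists were counted over genes with at least 1 FPKM in 1 library. The members and lists were chosen with earlier results of these data known. Genes were named from the members, all genes of the acetylcholine, RET and target lists, defining markers of other cell types, and of each other list the 2 most abundant genes and those with the highest and the lowest ratio. *Adcyap1*, *Grp*, *Sst*, *Calca*, *Nog*, *Ddc*, *Dbh*, *Nmu*, *Th*, *Vipr1* and *Mylpf* were named after their values were seen, as were the neuropeptide precursors as a group. Lists of peptide processing, CREB-related and neurotrophic genes were added after other values had been seen. Genes of these added lists were not all named by the rule above, *Pcsk1*, *Pcsk2* and *Cntf* being exceptions. Transcript lengths came from GENCODE M21, in which 94.7% of symbols were found, and promoters from RefSeq. Alternatives were median centring, FPKM sum, upper quartile, other pseudocounts, filters and folds, and transcript length centring. Counting was tested on simulated data. Python 3.11.15, numpy 2.4.6, pandas 2.3.3 and matplotlib 3.10.9 were used. Single values of some genes that the naming rule selects are not reported here.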

Additional observations from a re-analysis of the deposited data

How the results depend on the processing

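Each member kept the direction of its ratio under all 6 alternatives run for it, and none moved by more than 1.5 times. *Vip* ranged from 2.02 to 2.21, *Tac1* from 1.59 to 1.78, *Nos1* from 0.744 to 0.948 and *Elavl4* from 0.778 to 0.891. At a fold of 1.5, 2 members, *Vip* and *Tac1*, counted as higher, against 19.7% of all genes, and 0 counted at a fold of 3, against 6.43%. Members at most halved remained 0 under each alternative, and peptide and amine genes past the fold numbered 5 under each alternative that kept a fold of 2, 7 at a fold of 1.5 and 4 at a fold of 3. Muscle-side target genes at most halved were 5 by the main count, against 4.98% of all genes. At a fold of 1.5 they numbered 9, against 12.6% of all genes, and at a fold of 3 they numbered 2, against 1.72%. Scaling to the FPKM sum gave 6, against 6.06%, and a pseudocount of 1 gave 4, against 1.64%. Requiring at least 1 FPKM in both libraries, which leaves out *Tacr2* and *Tacr3*, gave 3, against 2.82%. Transcript length centring, which has no length for *Gucy1b3* and puts *Chrm2* at 0.551, gave 3, against 4.67%. That centring and the alternatives for the peptide and target lists were chosen after seeing the data. No paired analysis was possible because each genotype has 1 library. Leaving out a library would leave no comparison. The depth behind each gene is unknown, and small ratios such as that of *Chat*, at about 3 FPKM, rest on the lowest levels of the 9.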

Other observations

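Genes that process and store neuropeptides had ratios nearer to 1 than most of the peptide precursors. Of 10 such genes, 6 had a ratio above 1, 1 a ratio of 2 or more and 0 a ratio of 0.5 or less, with a median log2 ratio of 0.13. *Cpe*, the carboxypeptidase that trims precursors, was the most abundant, with 551.97 FPKM in *Dnmt1*-WT and 379.4 FPKM in *Dnmt1*-KO, and other cells also express it. The granule protein gene *Scg2* was 125.56 and 137.3 FPKM. The prohormone convertase genes *Pcsk1* and *Pcsk2* had ratios of 1.21 and 1.3. The doubled gene was *Vgf*, a neuronal granule peptide precursor, at 4.03 FPKM in *Dnmt1*-WT and 18.37 FPKM in *Dnmt1*-KO, a ratio of 4.56.

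Of 9 neurotrophic factor and receptor genes outside the RET system, 7 reached 1 FPKM in 1 library, with a median log2 ratio of 0.31. *Ngfr*, a neurotrophin receptor of neurons and glia, was 42.31 and 50.82 FPKM, and *Ntf3*, the ligand neurotrophin 3, was 3.82 and 2.27 FPKM, a ratio of 0.594. *Cntf* was listed at 0 in *Dnmt1*-WT and at 1.02 FPKM in *Dnmt1*-KO. Of 7 CREB-related and activity-regulated genes at 1 FPKM or more in 1 library, 3 had a ratio above 1. *Bdnf*, which reached 1 FPKM only in *Dnmt1*-KO, was 0.69 and 1.91 FPKM, and *Creb1* was 8.54 and 5.21 FPKM.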
